A study of Mus musculus with 12 samples.

Results

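The nuclear-encoded genes of oxidative phosphorylation were followed through 12 RNA-seq libraries of mouse mandibular condylar fibrocartilage. Members were the genes of the deposited count table whose symbols follow the naming of the subunits of the 5 complexes (Nduf, Sdh, Uqcr, Cox and Atp5 symbols). The patterns matched 81 of 23284 genes. The striated-muscle isoforms Cox6a2, Cox7a1 and Cox8b were set aside and are described on their own, which left 78 members. Of these, 36 belong by name to complex I, 4 to complex II, 8 to complex III, 14 to complex IV and 16 to complex V. Ndufa4, counted with complex I by its symbol, is known as a subunit of complex IV. A filter on low counts kept 75 members for testing, and Cox7b2, Cox8c and Ndufs5 were below it.

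Oxidative phosphorylation is the mitochondrial pathway in which complexes I and II pass electrons from NADH and succinate to ubiquinone, complex III passes them to cytochrome c, and complex IV (cytochrome c oxidase) passes them to oxygen. Protons pumped on the way drive complex V, the ATP synthase. Striated muscle is rich in these complexes, whereas chondrocytes, which live in poorly vascularized tissue, are known for relying largely on glycolysis.

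The mice were female, of strain C57BL/6, and wild type (WT) or labelled ERalphaKO, a knockout of estrogen receptor alpha, the product of Esr1. All of them, the controls included, were ovariectomized at 16 weeks of age, received either 17beta-estradiol (E2, a 0.01 mg form with 60-day release) or placebo for 1 week, and were 17 weeks old at harvest. The groups were ERalphaKO with E2 (3 libraries), ERalphaKO with placebo (4 libraries), WT with E2 (3 libraries) and WT with placebo (2 libraries). RNA came from all cells of the dissected tissue, so fewer cells of a type and less RNA per cell cannot be told apart. The labels name neither the knockout allele nor whether a library is 1 animal or a pool, and p-values therefore measure the spread between these libraries, which may be technical in part.

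The libraries held 9696434 to 28750636 counts. Esr1 was at 4.55 to 5.78 CPM (a gene's counts relative to all counts of its library, the usual sequencing-depth scale) in ERalphaKO E2 libraries, 3.65 to 5.68 CPM in ERalphaKO placebo libraries, 8.52 to 12.04 CPM in WT E2 libraries and 14.2 to 17.5 CPM in WT placebo libraries, lower in every ERalphaKO library than in any WT library. Defining markers of the labelled tissue were abundant in every library, with sums of 4952 to 25642 CPM for 11 chondrocyte markers and 86935 to 132098 CPM for 10 fibrocartilage matrix genes. Markers of other cells were also present. Osteoblast and osteocyte markers summed to 10068 to 16709 CPM and osteoclast markers to 7011 to 10497 CPM, while brown adipocyte markers stayed at or under 1.40 CPM. Skeletal muscle and granulocyte markers varied widely between libraries of the same group. Skeletal muscle markers, 25 genes such as Acta1 and Ckm, summed to 22.5 to 88.1 CPM in ERalphaKO E2 libraries, 26.8 to 9241 CPM in ERalphaKO placebo libraries, 351 to 1866 CPM in WT E2 libraries and 18.9 to 3876 CPM in WT placebo libraries. Granulocyte markers summed to 18.5 to 7401 CPM in ERalphaKO E2 libraries, 27.6 to 17454 CPM in ERalphaKO placebo libraries, 3.72 to 1169 CPM in WT E2 libraries and 74.6 to 910 CPM in WT placebo libraries. The highest sum of both lists was in ERalphaKO placebo replicate 3.

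Most members were well expressed. Mean levels reached 10 CPM in 65 members and 100 CPM in 12. The catalytic subunits of ATP synthase led, with mean levels over the 12 libraries of 579 CPM for Atp5b (beta subunit) and 501 CPM for Atp5a1 (alpha subunit). Sdha, the flavoprotein that oxidizes succinate, averaged 205 CPM, Cox4i1, the ubiquitous form of cytochrome c oxidase subunit IV, 175 CPM, and Uqcrc2, a core protein of complex III, 129 CPM. Levels of different genes can be compared only per transcript length, and on that scale the median member was at 54.6 CPM per kb. Atp5b was again highest at 302 CPM per kb, followed by Cox4i1 at 235 and Atp5a1 at 203 CPM per kb. By complex, the median was 47.4 CPM per kb in complex I, 67.6 in complex II, 67.9 in complex III, 72.8 in complex IV and 53.7 in complex V.

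A group of 11 members stayed under 10 CPM per kb. Cox6b2, Cox7b2 and Cox8c are known as testis-type isoforms: Cox6b2 was at 7.34 CPM per kb, Cox7b2 had counts in a single library (0.0471 CPM in WT E2 replicate 2), and Cox8c was listed at 0 throughout. The others included Atp5g2, which encodes the same mature c subunit as Atp5g1 and Atp5g3, at 1.70 CPM per kb, Atp5l, subunit g of ATP synthase, at 2.15, the complex I subunit Ndufb4 at 2.81 and the complex IV subunit Cox7c at 4.57 CPM per kb. Atp5g2, Atp5l, Ndufb4 and Cox7c have near-identical copies elsewhere in the genome. In GENCODE M21 transcripts, the share of 100-base windows that also occur in a transcript of another gene was 100% for Atp5g2, 69.0% for Atp5l, 44.4% for Cox7c and 33.4% for Ndufb4. Of the 11 low members, 5 shared no window, among them the testis-type Cox6b2, Cox7b2 and Cox8c, and Atp5s at 5.20 CPM per kb. Atp5o, with 30.3% of windows shared, was at 42.7 CPM per kb. The partner that shared most of these windows was a second gene entry with the same symbol, Atp5o, rather than a differently named gene. Across the members, 50 shared no such window and had a median of 60.1 CPM per kb, 25 shared fewer than 50% of windows and had a median of 54.2, and 3 (Atp5g2, Atp5l and Atp5g1) shared at least 50% and had a median of 2.15 CPM per kb. The class under 50% is mixed: the top partner of Uqcrc2 was the protein-coding gene Pdzd9, and that of Ndufs3 the processed pseudogene Gm12251. Its median does not separate the 2 kinds. No source used here states how reads with several matches were counted, and the levels of members with shared windows are therefore uncertain.

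Ndufs5, an accessory subunit of complex I, was listed at 0 in all 12 libraries, although 27.0% of its windows were shared. The partner gene, the processed pseudogene BC002163, held 4538 counts in all, at 16.0 to 22.6 CPM per library. Atp5g3, the c-subunit gene with no shared window, was at 196 CPM per kb, against 20.7 CPM per kb for Atp5g1, of whose windows 57.3% were shared. Whether reads of Ndufs5 or Atp5g1 were assigned to their copies was not tested.

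**Figure D1:**
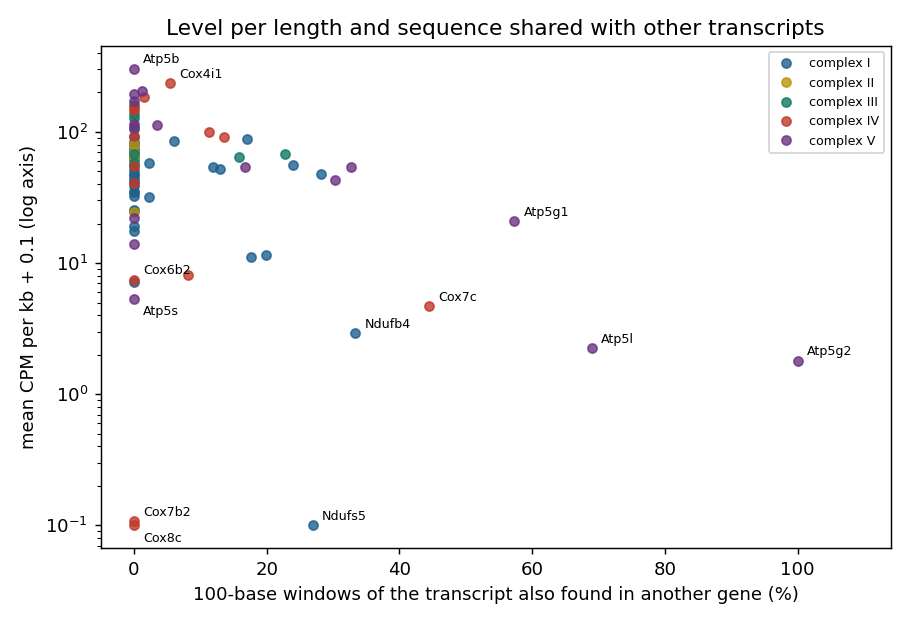
Mean level of each of the 78 members per transcript length (CPM per kb plus 0.1, log axis) against the share of its 100-base windows that also occur in a transcript of another gene (%), coloured by complex. Members with no shared window span most of the range up to Atp5b at 302 CPM per kb, while Atp5g2, Atp5l, Cox7c and Ndufb4 lie under 5 CPM per kb with 33.4% to 100% of windows shared.

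Promoters of these genes are known for binding sites of the nuclear respiratory factors NRF1 and NRF2 (GABP, an ETS factor) and of the estrogen-related receptors, orphan receptors that share homology with estrogen receptors but do not bind estradiol. RefSeq promoters of build GRCm38.p6, covering 250 bases before to 50 after a gene start, were at hand for 65 of the 78 members (70 promoters). Motifs were searched on both strands by exact letters. The NRF1 motif (GCGC and TGCGC with any 1 base between them) occurred in 17 of the 65 genes (26.2%), against 5.19% of 27025 genes with a promoter. The ETS motif CCGGAAG occurred in 16 genes (24.6%, against 9.93% of all genes), and the YY1 motif (AAGATG followed directly by GCGGC) in 4 (6.15%, against 0.755%). The estrogen-related receptor element TCAAGGTCA was in the promoters of Sdhd and Atp5g3 (3.08%, against 0.466%). The full estrogen response element (GGTCA and TGACC with any 3 bases between them) was in 0 of the 65 (against 0.074%), which says only that these letters are not in these windows. The Sp1 motif GGGCGG was in 27 genes (41.5%, against 38.2%), the muscle-type E-box CAGCTG in 5 (7.69%, against 18.3%) and the MEF2 motif (CTATT followed directly by TATAG) in 0 (against 0.181%). Median GC content was 58% for the members' promoters and 52.7% for all promoters. These matches are descriptions of letters, not binding sites.

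Promoters are given for Cox6a1 and Sdhd, which hold both NRF1 and ETS motifs, for Atp5g3, which holds NRF1 and estrogen-related receptor motifs, for Atp5k, the member with the most negative fold change under E2 in WT, and for the set-aside Cox8b for contrast. Each is written 5′ to 3′ on the minus strand, on which all 5 genes lie. Capitals mark NRF1, ETS and estrogen-related receptor motifs on either strand, and in Cox8b the E-boxes, since none of the other motifs is in that window. The windows are chr5:115348909-115349208 for Cox6a1, chr9:50603800-50604099 for Sdhd, chr2:73911277-73911576 for Atp5g3, chr5:108434350-108434649 for Atp5k and chr7:140900397-140900696 for Cox8b.
Cox6a1 promoter: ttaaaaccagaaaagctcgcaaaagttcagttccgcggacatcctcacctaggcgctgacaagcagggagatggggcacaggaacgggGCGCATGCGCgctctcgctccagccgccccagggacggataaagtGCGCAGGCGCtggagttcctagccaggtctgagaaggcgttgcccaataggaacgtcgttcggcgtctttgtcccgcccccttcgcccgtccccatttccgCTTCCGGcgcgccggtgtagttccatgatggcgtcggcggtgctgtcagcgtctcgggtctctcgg
Sdhd promoter: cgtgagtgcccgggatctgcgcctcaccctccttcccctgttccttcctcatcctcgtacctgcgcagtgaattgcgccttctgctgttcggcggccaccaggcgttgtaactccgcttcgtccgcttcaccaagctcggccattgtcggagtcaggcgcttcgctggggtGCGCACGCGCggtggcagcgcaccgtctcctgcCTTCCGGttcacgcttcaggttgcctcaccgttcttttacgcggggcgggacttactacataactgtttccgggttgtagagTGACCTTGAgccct
Atp5g3 promoter: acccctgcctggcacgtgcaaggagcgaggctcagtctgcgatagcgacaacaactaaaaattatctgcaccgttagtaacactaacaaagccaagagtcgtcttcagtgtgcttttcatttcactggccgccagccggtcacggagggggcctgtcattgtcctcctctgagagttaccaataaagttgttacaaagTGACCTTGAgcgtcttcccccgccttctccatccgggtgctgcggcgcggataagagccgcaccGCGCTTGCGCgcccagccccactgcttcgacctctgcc
Atp5k promoter: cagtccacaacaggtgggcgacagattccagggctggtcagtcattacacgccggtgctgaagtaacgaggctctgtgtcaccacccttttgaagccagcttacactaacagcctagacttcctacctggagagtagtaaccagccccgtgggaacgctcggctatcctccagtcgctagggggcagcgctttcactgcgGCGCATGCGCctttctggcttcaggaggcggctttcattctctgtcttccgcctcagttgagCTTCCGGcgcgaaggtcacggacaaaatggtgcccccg
Cox8b promoter: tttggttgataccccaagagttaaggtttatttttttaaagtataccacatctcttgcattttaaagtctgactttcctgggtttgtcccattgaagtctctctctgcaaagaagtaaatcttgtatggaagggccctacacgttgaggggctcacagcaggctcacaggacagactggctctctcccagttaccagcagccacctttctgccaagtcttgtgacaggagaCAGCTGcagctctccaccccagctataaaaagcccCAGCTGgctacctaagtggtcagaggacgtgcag

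The widest differences in member levels were between libraries of a single group. ERalphaKO placebo replicate 3 had the highest level of the 12 libraries for 66 of 75 tested members (20.5% of all 14832 tested genes were highest there), and ERalphaKO placebo replicate 1 the lowest for 41 (11.7% of all genes). For 40 members both held. All 78 members together took 0.496%, 0.459% and 0.475% of the counts in ERalphaKO E2 libraries, 0.438%, 0.510%, 0.776% and 0.485% in ERalphaKO placebo libraries, 0.534%, 0.451% and 0.480% in WT E2 libraries, and 0.512% and 0.535% in WT placebo libraries. The lowest and the highest share, 0.438% and 0.776%, were both in the ERalphaKO placebo group. The level in replicate 3 of the ERalphaKO placebo group was a median 1.53 times the mean of the other 3 libraries of that group, against 1.00 for all genes, and the lowest of the 35 tested complex I genes was at 1.35. Members of complexes II and III ran at medians of 1.49 and 1.62, and those of complexes IV and V at 1.49 and 1.52. The 5 exceptions below 1 were the tissue-restricted subunits Cox4i2 (0.700) and Cox6b2 (0.954) of complex IV, and Atp5l (0.760), Atp5g2 (0.804) and Atp5k (0.996) of complex V, of which Atp5l and Atp5g2 share most of their sequence with other genes. Muscle markers were a median 8.99 times as high in this library. Granulocyte markers were highest in the same library, and the part of either in the member levels was not tested.

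**Figure D2:**
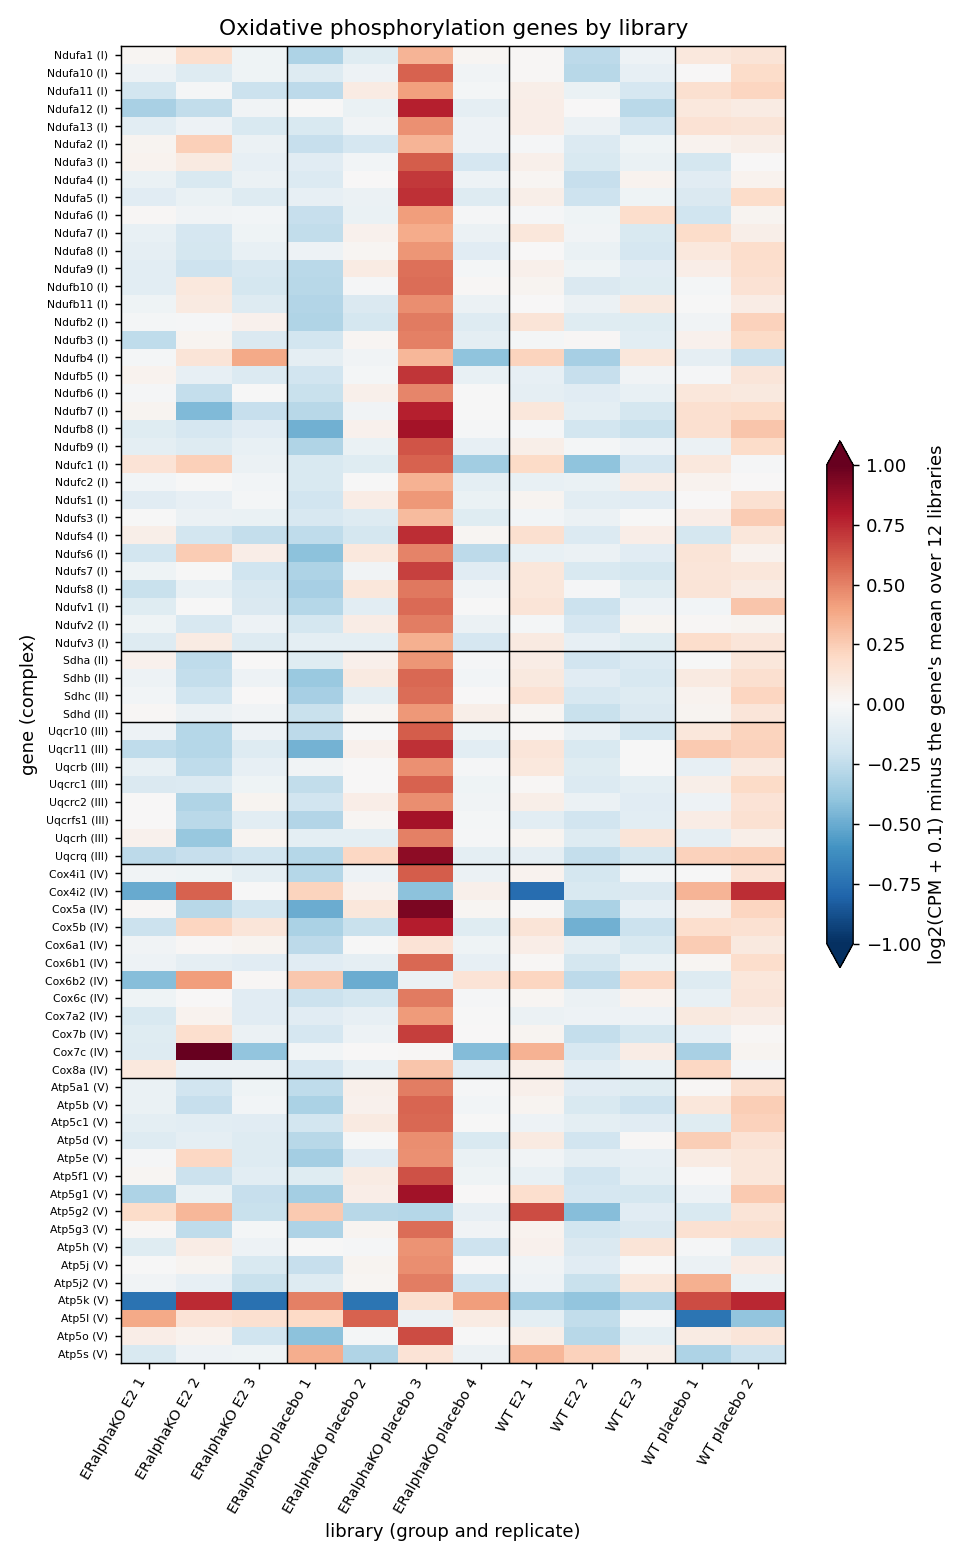
Level of 74 of the 75 tested members (rows, by complex) in the 12 libraries (columns, by group), as log2(CPM + 0.1) minus the gene's own mean over the libraries; colours saturate at 1 unit in either direction. Replicate 3 of the ERalphaKO placebo group is highest in 65 rows, and Cox4i2, Cox6b2, Cox7c, Atp5g2, Atp5k, Atp5l and Atp5s show patterns of their own.

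With that library included, the median biological coefficient of variation within groups was 16.8% for the tested members (range 11.4% to 36.0%), against 15.9% for all tested genes and 14.1% for the genes of like abundance. The ratio of the highest to the lowest library exceeded 2 in 16 members. Mean log2 CPM of the 75 members was 5.22, 5.26 and 5.21 in ERalphaKO E2 libraries, 5.11, 5.27, 5.79 and 5.24 in ERalphaKO placebo libraries, 5.34, 5.15 and 5.22 in WT E2 libraries, and 5.33 and 5.43 in WT placebo libraries. Without ERalphaKO placebo replicate 3, all 11 other libraries lay between 5.11 and 5.43.

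Whether E2 changed the members in WT tissue was asked with 3 E2 and 2 placebo libraries. No member passed an adjusted p of 0.05 in edgeR's quasi-likelihood test, in which 0.458% of the 14832 tested genes were called. At an unadjusted p under 0.05 there were 1 higher and 2 lower members (4.42% and 3.73% of all genes), and DESeq2 called 0 members as well. Fold changes leaned to one side: 64 of 75 were negative, against 50.9% of all genes, with a median log2 fold change of -0.155 against -0.00 for all genes. The medians by complex were -0.15 for complex I, -0.17 for II, -0.22 for III, -0.14 for IV and -0.17 for V. In 35 members both placebo libraries were above all 3 E2 libraries (13.7% of all genes), of which 16 belong to complex I, 1 to complex II, 5 to complex III, 6 to complex IV and 7 to complex V. In 2 members, Atp5l and Atp5s, the E2 libraries were all higher (13.2% of all genes). Most members rose and fell together by library, so these counts are not of independent observations. The mean log2 CPM of the 75 members overlapped between the groups, at 5.34 in WT E2 replicate 1 and 5.33 in WT placebo replicate 1. The median was -0.0985 with 53 negative members without WT placebo replicate 2, -0.107 with 59 negative when the granulocyte marker level was a covariate, and -0.24 with 67 negative when the muscle marker level was one. Several marker lists leaned to one side in the same contrast. White adipocyte markers summed to 5.37 to 13.3 CPM in WT E2 libraries, against 14.1 to 92.3 CPM in WT placebo libraries, with a median log2 fold change of -4.25, 7 of 7 negative and 5 of these at an unadjusted p under 0.05. Skeletal muscle markers had a median of -0.85 with 23 of 24 negative and 0 at an unadjusted p under 0.05. Their sums in WT placebo libraries, 18.9 and 3876 CPM, lay on both sides of the WT E2 sums of 351 to 1866 CPM. Macrophage markers summed to 708 to 1156 CPM in WT E2 libraries, against 616 to 770 CPM in WT placebo libraries, with a median of 0.91 and 6 of 8 higher at an unadjusted p under 0.05. Endothelial markers had a median of 0.38 with 8 of 8 positive and 1 at an unadjusted p under 0.05. Fibrocartilage matrix genes summed to 89257 to 104752 CPM in WT E2 libraries, against 126075 to 132098 CPM in WT placebo libraries. Their median was -0.45, with 8 of 10 negative and 4 lower at an unadjusted p under 0.05. The part of the adipocyte, macrophage, endothelial and matrix genes in the member values was not tested.

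Cox4i2, the subunit IV isoform known for its expression in lung and under low oxygen, had the smallest p. It was at 22.4, 34.1 and 34.3 CPM in WT E2 libraries, against 48.1 and 63.5 CPM in WT placebo libraries. The groups did not overlap, and the log2 fold change was -0.88 ± 0.30 (SE), a fold of 0.542, with an adjusted p of 0.421 (edgeR). Its counterpart Cox4i1 was at 177, 153 and 170 CPM in WT E2 libraries, against 172 and 190 CPM in WT placebo libraries, and these groups overlapped. As a share of the counts of both genes, Cox4i2 made up 11.2%, 18.2% and 16.8% in WT E2 libraries and 21.8% and 25.1% in WT placebo libraries.

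Atp5k, subunit e of ATP synthase, was at 3.76, 3.62 and 3.89 CPM in WT E2 libraries, against 7.57 and 8.13 CPM in WT placebo libraries. The 2 groups were well apart, with a log2 fold change of -1.06 ± 0.45 and an adjusted p of 0.5796 (edgeR). In ERalphaKO tissue the same gene ran at 2.83, 8.09 and 2.81 CPM with E2 and at 6.82, 2.84, 5.35 and 6.44 CPM with placebo, a spread within each group as wide as the gap in WT. Atp5s, counted with complex V by its symbol but named Dmac2l in RefSeq, went the other way. It was at 9.63, 8.99 and 7.94 CPM in WT E2 libraries, against 6.16 and 6.56 CPM in WT placebo libraries. Its log2 fold change was 0.48 ± 0.19 with an adjusted p of 0.549 (edgeR). Atp5l was at 1.05, 0.941 and 1.13 CPM in WT E2 libraries, against 0.645 and 0.843 CPM in WT placebo libraries. This gene is among those with mostly shared sequence.

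Among the abundant members the differences were small. Atp5b was at 583, 514 and 495 CPM in WT E2 libraries, against 619 and 679 CPM in WT placebo libraries, a log2 fold change of -0.29 ± 0.21 with an adjusted p of 0.801 (edgeR). Cox6a1, the ubiquitous subunit VIa isoform, was at 109, 97.6 and 94.0 CPM in WT E2 libraries, against 125 and 112 CPM in WT placebo libraries. Its log2 fold change of -0.24 ± 0.11 had an adjusted p of 0.624 (edgeR). Uqcrq, a small subunit of complex III, was at 50.2, 45.4 and 47.3 CPM in WT E2 libraries, against 62.8 and 63.1 CPM in WT placebo libraries, without overlap and with an adjusted p of 0.768 (edgeR). The named complex I members Ndufa1, Ndufa8 and Ndufa11, accessory subunits, had log2 fold changes of -0.21 to -0.25, and the core subunit Ndufs1 -0.14. The succinate dehydrogenase genes Sdha, Sdhb and Sdhd had -0.14, -0.18 and -0.19.

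The authors' deposited table of the same comparison called 1.75% of its genes at an adjusted p of 0.05, and among the members it called 3 lower with E2 and 0 higher. These 3 were Atp5k, Cox4i2 and Uqcrq. The smallest adjusted p was that of Atp5k, with a log2 fold change of -1.01 and an adjusted p of 0.00128 in the authors' deposited table. In the authors' deposited tables of the other 3 comparisons no member was called. The shares of genes called there were 0.0494% for E2 in ERalphaKO, 1.82% for genotype under placebo and 3.75% for genotype under E2. For E2 in ERalphaKO only 67 members had an adjusted p, against 75 in each other comparison.

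In ERalphaKO tissue, E2 (3 libraries) was compared with placebo (4 libraries). Here edgeR called 0 members at an adjusted p of 0.05, as it called 0% of all genes, and 0 members had an unadjusted p under 0.05 (5.7% of all genes). DESeq2 also called 0 members, with 1 at an unadjusted p under 0.05. Of the 75 fold changes 62 were negative, against 50% of all genes, and the median log2 fold change was -0.17 against 0 for all genes. This lean was not seen without ERalphaKO placebo replicate 3: the median then was -0.000192 and 38 of 75 were negative, and with a muscle marker covariate in the model the median was 0.04 and 24 were negative. Muscle markers had a median log2 fold change of -5.82 in the same contrast and were negative in 24 of 24. Granulocyte markers had a median of -1.22 with 11 of 13 negative, and chondrocyte markers of -0.20 with 10 of 10 negative. Osteoblast and osteocyte markers (0.14, 9 of 9 positive) and erythroid markers (0.45, 6 of 6 positive) went the other way. The part of these lists in the member values was not tested.

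The smallest p in this contrast belonged to Uqcrq, at 44.6, 45.5 and 46.5 CPM in ERalphaKO E2 libraries, against 43.9, 61.7, 99.2 and 49.997 CPM in ERalphaKO placebo libraries. The placebo values enclose the E2 values, and the log2 fold change was -0.49 ± 0.22 with an adjusted p of 0.878 (edgeR). Uqcrb, which binds ubiquinone in complex III, was the single member without overlap (3.09% of all genes were lower and 2.58% higher without overlap). It was at 32.6, 28.8 and 32.6 CPM in ERalphaKO E2 libraries, against 33.6, 34.5, 47.2 and 34.1 CPM in ERalphaKO placebo libraries, so that outside replicate 3 the gap was small. Cox4i2 and Atp5k, lowest with E2 in WT, were at 26.7, 57.1 and 37.8 CPM and at 2.83, 8.09 and 2.81 CPM in ERalphaKO E2 libraries, on both sides of the ERalphaKO placebo values of 28.6 to 44.4 CPM and 2.84 to 6.82 CPM.

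Whether the E2 effect differed by genotype was tested as an interaction, which called 0 members in edgeR (0.0539% of all genes) and 0 in DESeq2, with 2 members at an unadjusted p under 0.05 in either tool (6.78% of all genes in edgeR). Cox4i2 had an interaction of 0.98 ± 0.39 on the log2 scale with an adjusted p of 0.651, and Atp5s of -0.61 ± 0.25 with an adjusted p of 0.662, both from edgeR. The median over the members was -0.02, with 43 of 75 negative, against 52.8% of all genes. It was 0.17 with 9 negative without ERalphaKO placebo replicate 3, and 0.28 with 5 negative with the muscle covariate. Scaling by library totals alone gave -0.12 with 61 negative, where all genes had a median of -0.11.

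**Figure D3:**
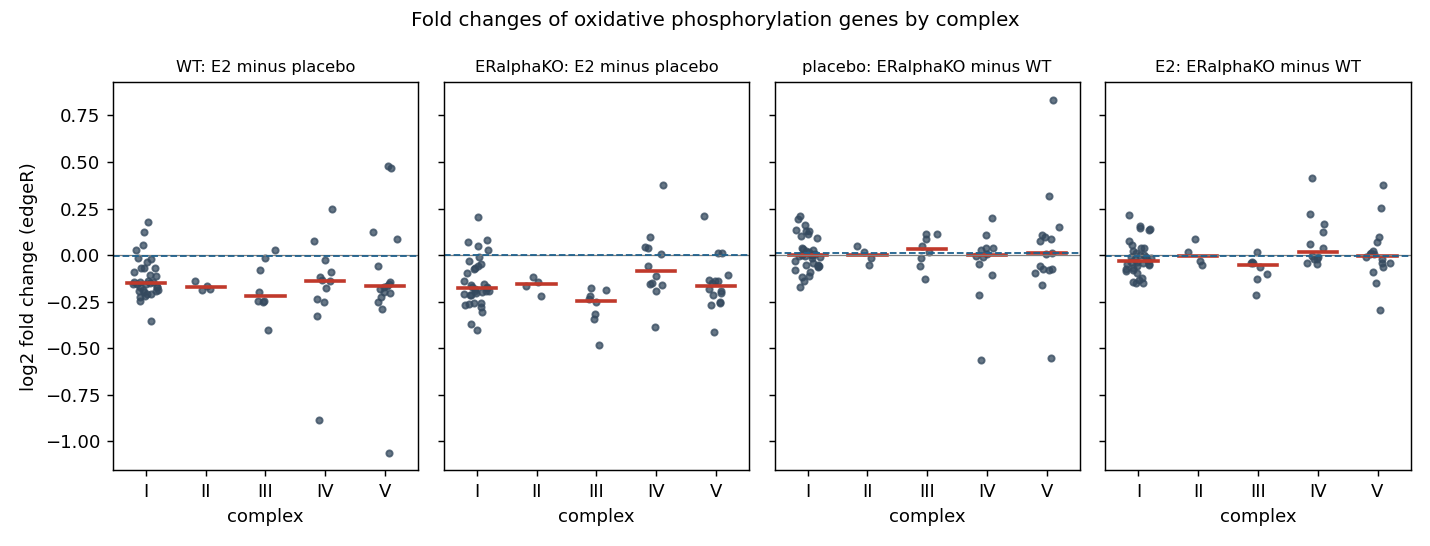
Log2 fold changes from edgeR of the 75 tested members by complex (points) in 4 comparisons, with the median of each complex (red bar) and of all tested genes (dashed line). Medians by complex lie between -0.09 and -0.24 in both E2 comparisons and between -0.05 and 0.03 in both genotype comparisons.

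Loss of estrogen receptor alpha under placebo was compared with 4 ERalphaKO and 2 WT libraries. No member was called by edgeR (0.0135% of all genes) or by DESeq2, and at an unadjusted p under 0.05 there were 1 higher and 0 lower members (5.07% and 3.86% of all genes). The median log2 fold change was 0.00 against 0.01 for all genes, and 36 of 75 were negative against 47.9% of all genes. Without ERalphaKO placebo replicate 3 the median was -0.19 with 71 negative, and with library totals as the scale it was 0.08 with 12 negative, where all genes had a median of 0.09. Relative to all genes the members thus stayed close to 0 under this scaling, while leaving out the 1 library moved them. Atp5l had the smallest p, at 1.32, 1.76, 1.08 and 1.21 CPM in ERalphaKO placebo libraries, against 0.645 and 0.843 CPM in WT placebo libraries, a log2 fold change of 0.83 ± 0.28 with an adjusted p of 0.457 (edgeR). Cox4i2 was at 44.4, 38.8, 28.6 and 39.3 CPM in ERalphaKO placebo libraries, against 48.1 and 63.5 CPM in WT placebo libraries. All 4 knockout values were lower, and the log2 fold change of -0.56 ± 0.28 had an adjusted p of 0.597 (edgeR). Atp5l was the 1 member higher without overlap (10.5% of all genes), and Cox4i2 and Atp5k were the 2 lower (10.6% of all genes). Granulocyte markers had a median log2 fold change of 4.97 for ERalphaKO against WT under placebo, with 13 of 13 positive. Of these, 4 had an unadjusted p under 0.05 (edgeR). Their mean log2 CPM was 3.07, -0.103, 9.33 and 6.55 in ERalphaKO placebo libraries, against 3.83 and 0.966 in WT placebo libraries, and these groups overlapped. Member medians with the granulocyte level as a covariate are given below. The part of these markers in the member values was not tested.

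Under E2, 3 ERalphaKO libraries were compared with 3 WT libraries. edgeR called 0 members (1.1% of all genes) and DESeq2 0, and 0 had an unadjusted p under 0.05 in either tool (11.5% of all genes in edgeR). The median log2 fold change was -0.02 with 45 of 75 negative, against 50.8% of all genes. Chondrocyte markers leaned lower in ERalphaKO (median log2 fold change -1.07, 10 of 10 negative, 4 at an unadjusted p under 0.05, edgeR). Macrophage markers did as well (-0.92, 7 of 8 negative, 6 at that p). Erythroid markers (4.30, 6 of 6 positive, 4 at that p) and granulocyte markers (2.41, 12 of 13 positive, 2 at that p) leaned higher. The part of these lists in the member values was not tested. Muscle markers had a median log2 fold change of -4.1 in this contrast. With their level as a covariate the member median was 0.18 with 4 negative. That level was 1.00, 0.729 and -0.939 in ERalphaKO E2 libraries and 4.92, 3.92 and 2.89 in WT E2 libraries (mean log2 CPM), without overlap. The covariate median therefore rests on the slope fitted within groups, whose median over the members was 0.025 without ERalphaKO placebo replicate 3. Scaling by library totals gave a median of -0.04 with 54 negative. Atp5s had the smallest p, at 6.87, 7.36 and 7.41 CPM in ERalphaKO E2 libraries, against 9.63, 8.99 and 7.94 CPM in WT E2 libraries, without overlap, with a log2 fold change of -0.30 ± 0.17 and an adjusted p of 0.558 (edgeR). Ndufb9, a complex I subunit, was the other member lower without overlap (8.94% of all genes), at 57.6, 56.3 and 58.6 CPM in ERalphaKO E2 libraries, against 64.3, 60.7 and 59.7 CPM in WT E2 libraries. Atp5l was the 1 member higher without overlap (6.97% of all genes), at 1.51, 1.26 and 1.28 CPM in ERalphaKO E2 libraries, against 1.05, 0.941 and 1.13 CPM in WT E2 libraries.

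The width of the intervals sets what these comparisons could see. The 95% interval of the fold change lay within 2-fold either way for 69 of 75 members for E2 in WT, 73 for E2 in ERalphaKO, 72 for genotype under placebo and 73 for genotype under E2. It lay within 1.5-fold either way for 38 members for E2 in WT, 46 for E2 in ERalphaKO, 55 for genotype under placebo and 57 for genotype under E2. For the interaction, 65 intervals lay within 2-fold and 20 within 1.5-fold. A joint test of any difference among the 4 groups called 0 members in edgeR (1.17% of all genes), with 0 at an unadjusted p under 0.05 (11.9% of all genes).

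Within groups, the members' levels were related to the muscle marker level of the library by a slope fitted in the same model, so that a slope of 1 would mean that a gene rises in proportion to the muscle markers. The slope was positive in 70 of 75 members, with a median of 0.052 log2 units per log2 unit of muscle markers, against 0.000198 for all genes. edgeR called 0 members at an adjusted p of 0.05, where 1.33% of all genes were called, but 47 members had an unadjusted p under 0.05 with a positive slope (5.12% of all genes). The smallest adjusted p was 0.0988, for Atp5c1, the gamma subunit of ATP synthase, with a slope of 0.07 ± 0.02. The steepest was Cox5a at 0.11 ± 0.03. All 35 complex I, 4 complex II and 8 complex III genes had positive slopes, and the 5 members with a negative slope (against 49.7% of all genes) were Cox4i2, Cox6b2, Atp5s, Atp5k and Atp5g2, from -0.02 to -0.00. Without ERalphaKO placebo replicate 3 the slope was positive in 66 members, with a median of 0.025 and 13 at an unadjusted p under 0.05 (17.3%, against 3.24% of all genes). DESeq2 was not run on the slope.

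**Figure D4:**
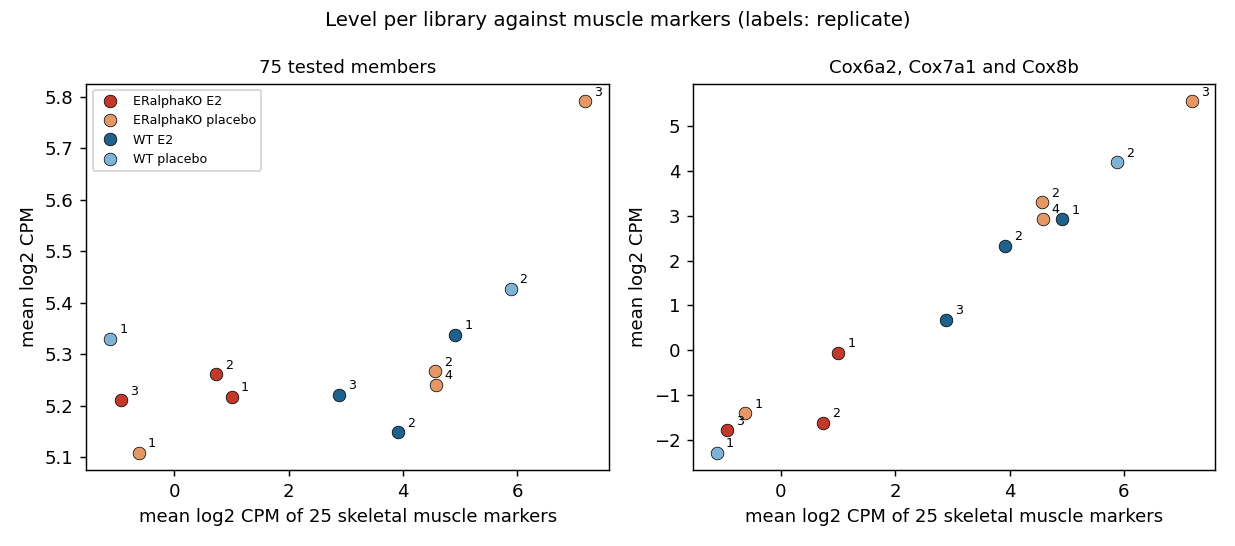
Mean log2 CPM of the 75 tested members (left) and of the set-aside isoforms Cox6a2, Cox7a1 and Cox8b (right) against mean log2 CPM of 25 skeletal muscle markers, 1 point per library, coloured by group and numbered by replicate. The isoforms climb over the whole range, while the members stay between 5.11 and 5.43 except in ERalphaKO placebo replicate 3, at 5.79.

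The isoforms set aside behaved unlike the rest. Cox6a2, Cox7a1 and Cox8b are the striated-muscle forms of cytochrome c oxidase subunits whose ubiquitous forms are Cox6a1, Cox7a2 and Cox8a. Their slopes on the muscle marker level were 1.07 ± 0.09, 0.65 ± 0.05 and 1.26 ± 0.09, with adjusted p of 8.62e-05, 4.75e-05 and 3.97e-05 (edgeR), and as muscle genes they share that description with the markers. Cox6a2 was at 1.14, 0.105 and 0.153 CPM in ERalphaKO E2 libraries, 0.419, 17.8, 79.9 and 11.2 CPM in ERalphaKO placebo libraries, 11.5, 8.00 and 2.25 CPM in WT E2 libraries, and 0 and 29.2 CPM in WT placebo libraries. Values thus spread within the placebo groups from none or nearly none to the highest of the data. A count of 0 in WT placebo replicate 1 allows up to 0.176 CPM.

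As a share of the counts of both forms, Cox6a2 reached 41.0% (95% exact binomial interval 39.6% to 42.4%) in ERalphaKO placebo replicate 3 and 20.7% (19.4% to 22.02%) in WT placebo replicate 2, and it was at most 1.11% in ERalphaKO E2 libraries. Cox7a1 reached 29.9% and Cox8b 26.5% of their pairs in ERalphaKO placebo replicate 3. These intervals cover counting error only. The ubiquitous forms were steadier: Cox6a1 was at 102, 105 and 107 CPM in ERalphaKO E2 libraries, 87.1, 104, 115 and 101 CPM in ERalphaKO placebo libraries, 109, 97.6 and 94.0 CPM in WT E2 libraries, and 125 and 112 CPM in WT placebo libraries. Cox4i2, whose restriction is not to muscle, took its lowest share of its pair, 9.81%, in the muscle-rich ERalphaKO placebo replicate 3, and its highest, 25.4%, in ERalphaKO E2 replicate 2.

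**Figure D5:**
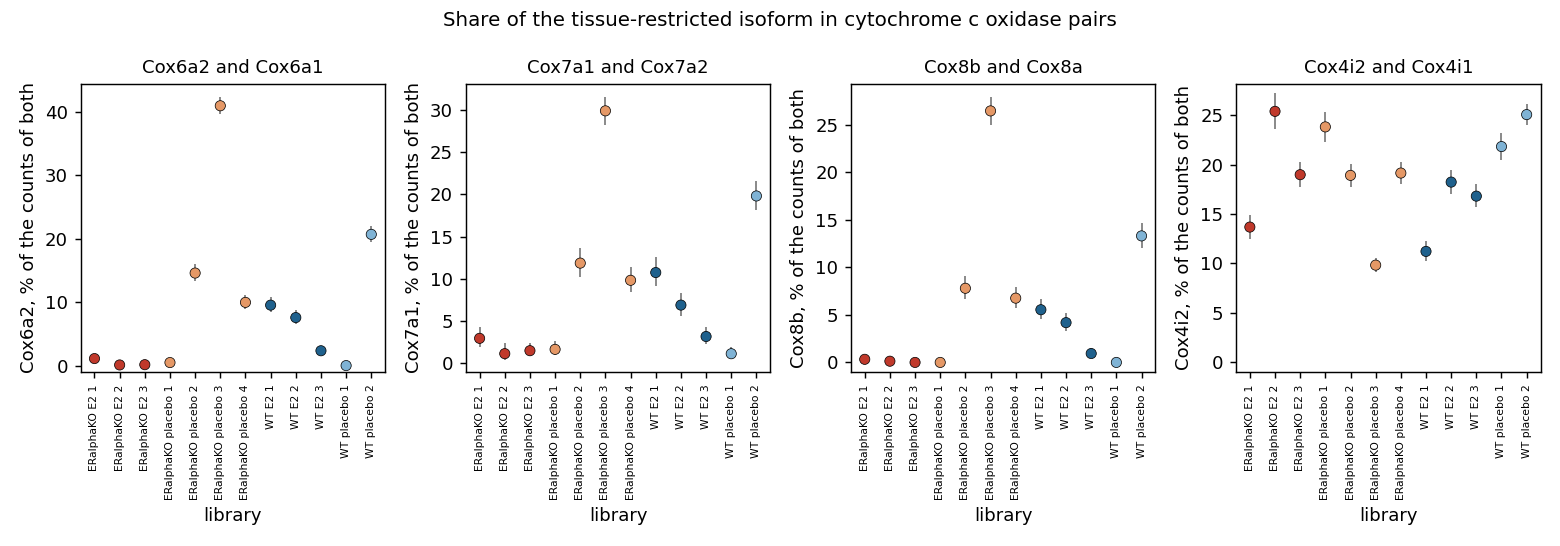
Counts of a tissue-restricted isoform as a percentage of the counts of that isoform and its ubiquitous counterpart, for 4 pairs of cytochrome c oxidase subunits, 1 point per library coloured by group, with 95% exact binomial intervals (counting error only). The muscle forms Cox6a2, Cox7a1 and Cox8b peak in ERalphaKO placebo replicate 3 at 41.0%, 29.9% and 26.5%, where Cox4i2 is at its lowest, 9.81%.

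Other genes around the pathway gave the same picture of few calls. Subunits and partners outside the naming patterns (8 tested genes), assembly factors (27 tested of 34), tricarboxylic acid cycle enzymes (13), fatty acid oxidation genes (14 tested of 15), regulators of mitochondrial biogenesis (15) and mitochondrial carriers and porins (6) held 0 genes past an adjusted p of 0.05 in edgeR for either E2 comparison, either genotype comparison or the interaction. For E2 in WT, unadjusted p under 0.05 was met by 1 assembly factor and 1 partner gene and by none of the other lists. The median log2 fold changes for E2 in WT were -0.09 for the partners, -0.01 for the assembly factors, -0.15 for the cycle enzymes (11 of 13 negative), -0.04 for fatty acid oxidation, -0.04 for the regulators and -0.13 for the carriers (6 of 6 negative).

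Ndufa4l2, a paralog of Ndufa4 known to be induced under low oxygen, was the partner gene with the smallest p for E2 in WT. It was at 244, 288 and 265 CPM in WT E2 libraries, against 393 and 383 CPM in WT placebo libraries, without overlap and with a log2 fold change of -0.55 ± 0.21 and an adjusted p of 0.538 (edgeR). In ERalphaKO tissue it was at 184, 344 and 261 CPM with E2, around the 299, 236, 223 and 272 CPM with placebo. Slc25a4, the ADP/ATP carrier form of muscle and heart, was at 243, 250 and 247 CPM in ERalphaKO E2 libraries, 207, 315, 588 and 283 CPM in ERalphaKO placebo libraries, 295, 280 and 230 CPM in WT E2 libraries, and 279 and 409 CPM in WT placebo libraries. Its highest values were in the libraries with the most muscle RNA, and its slope on the muscle marker level was 0.13 ± 0.03 with an adjusted p of 0.0592 (edgeR). The coactivator Ppargc1a, which drives mitochondrial biogenesis, was the only gene of these 6 lists past the threshold for the slope, at 0.47 ± 0.06 with an adjusted p of 0.0034 (edgeR), and it averaged 0.961 CPM. The cycle enzymes had positive slopes in 13 of 13 genes with a median of 0.055, close to the members' 0.052. Assembly factors had them in 19 of 27 with a median of 0.021, and all tested genes in 7460 of 14832. The slopes of this paragraph include ERalphaKO placebo replicate 3, without which the members' median was 0.025. Those of the other lists without that library are not given here.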

How the data were processed

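Polyadenylated RNA was made into libraries that were read on Illumina HiSeq machines in 100-base reads, per the labels' protocols. The submitters' processing notes name bcl2fastq 2.17, TopHat and mouse build mm9. Which tool, annotation and strand setting produced the counts, and how multiply matching reads were treated, is not given in the sources used here. Overlapping genes can therefore share counts. The authors deposited 1 table of raw counts, with 23284 gene symbols in rows and the 12 libraries in columns. The authors' deposited comparison tables hold log2 fold changes and adjusted p-values, used only where named. Genes encoded in mitochondrial DNA were not analysed here.

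Of the 23284 genes, 14832 passed edgeR's group-wise expression filter (minimum count 10). After TMM scaling, edgeR 4.0.16 (R 4.3.3) fitted a quasi-likelihood model to all 12 libraries with a mean for each group (8 residual degrees of freedom, common biological coefficient of variation 25.9%). P-values were adjusted by Benjamini-Hochberg over all tested genes at 0.05. CPM use the scaled library sizes, and log2 CPM a prior count of 2. Standard errors were calculated back from the F statistic. The muscle slope was added to the same model, as mean log2 CPM of 25 markers. Alternatives were DESeq2 1.42.0, other scalings, no filter, the compared groups alone, each library left out, a replicate block, and muscle or granulocyte marker covariates, the last chosen after seeing the data. Scripts were tested on simulated data.

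GENCODE M21 gave transcript lengths (1 principal transcript per gene) and shared windows, and RefSeq of GRCm38.p6 the promoters. Both differ in build from the counts, so they served for names, lengths and sequences only. All 78 members were found in both. Binomial intervals are exact at 95%, and a count of 0 allows up to 3 counts. Both cover counting error only.

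The members and lists were chosen with earlier results of these data known. Named were, per complex, the 3 members with the smallest p and the 2 most abundant, any past the threshold, and the isoform pairs. From other lists up to 3 genes past the threshold, or otherwise the 2 most abundant, were eligible. Members without overlap in counts of up to 5, members with shared sequence, and Ndufa4l2, Slc25a4 and BC002163 were named after their values were seen where this rule did not name them. The values of 1 member are not reported here, although counts and medians over the members include it.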

Additional observations from a re-analysis of the deposited data

Results flagged for a closer look

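In the ERalphaKO placebo group, the only group of 4 libraries, replicate 3 stood far above the other 3 libraries for 10 of the named members, by the ratio of its gap to the next library over the whole range. The CPM in that library were 20.6 for Ndufa12, 14.7 for Ndufs3, 103 for Ndufa4 and 54.6 for Ndufa3 in complex I by symbol. They were 47.2 for Uqcrb and 123 for Uqcrh in complex III, and 82.3 for Cox7a2, 133 for Cox6b1, 64.2 for Cox7b and 11.8 for Cox5b in complex IV. Of all 75 tested members, 17 had this library far above (22.7%), against 5.76% of all tested genes. Chance flags about 1 in 20 groups when any library at either end is counted, which is wider than the shares just given. Counted that way, 7.71% of all tested genes had a library of this group far above the others and 2.39% had one far below. The same library had the highest levels of skeletal muscle and of granulocyte markers, at mean log2 CPM of 7.19 and 9.33, and their part in these values was not tested.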

How the results depend on the processing

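No member passed the threshold in any group comparison under any setting run, and none of the named genes changed its call. Medians of the 75 log2 fold changes moved by more than the spread between replicates in 4 cases, and the cause was not tested. With a muscle marker covariate they were 0.0369 for E2 in ERalphaKO, 0.179 for genotype under E2 and 0.275 for the interaction. Muscle marker levels did not overlap between the groups compared under E2. Without ERalphaKO placebo replicate 3 the median for genotype under placebo was -0.194. Leaving out 1 library at a time gave medians of -0.204 to -0.0985 for E2 in WT, -0.254 to -0.000192 for E2 in ERalphaKO, -0.194 to 0.113 for genotype under placebo, -0.0474 to 0.0267 for genotype under E2 and -0.12 to 0.168 for the interaction. The slope on the muscle marker level kept 0 to 2 members past the threshold: 2 without WT placebo replicate 1 (Ndufb8 and Atp5o, adjusted p of 0.0467 and 0.0498 in edgeR) and 1 without WT placebo replicate 2 (Ndufb8, 0.0473). Its median ranged from 0.0249 to 0.0771. With the granulocyte covariate the medians were -0.107 for E2 in WT, -0.135 for E2 in ERalphaKO, -0.0676 for genotype under placebo and -0.104 for genotype under E2. With the replicate number as a block they were -0.212, -0.201, -0.042 and -0.0218 in that order, the interaction 0.0174, and no member call changed. Same-numbered libraries did not deviate together throughout (correlations from -0.326 to 0.5). This check cannot decide whether a number marks a shared animal, litter or day, which the labels do not state. The WT placebo group has 2 libraries, and the low members Atp5k and Atp5l carry wide intervals.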

Other observations

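Genes that feed the respiratory chain leaned the same way in ERalphaKO tissue, with 0 of them past an adjusted p of 0.05 in edgeR. For E2 against placebo in ERalphaKO, 13 of 13 tricarboxylic acid cycle enzymes, 14 of 14 tested fatty acid oxidation genes and 6 of 6 carriers and porins had negative fold changes, with median log2 fold changes of -0.18, -0.10 and -0.09. At an unadjusted p under 0.05 there was 1 cycle enzyme, Idh3a, a subunit of isocitrate dehydrogenase, with a log2 fold change of -0.35 ± 0.16. Without ERalphaKO placebo replicate 3, the fold changes were negative in 9 of 13 cycle enzymes, 5 of 14 fatty acid oxidation genes and 2 of 6 carriers and porins.

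Esrrg, an estrogen-related receptor known for driving oxidative genes in muscle, was at 0, 0.105 and 0.256 CPM in ERalphaKO E2 libraries, 0, 1.35, 9.10 and 1.57 CPM in ERalphaKO placebo libraries, 1.71, 1.32 and 0.102 CPM in WT E2 libraries, and 0.235 and 2.82 CPM in WT placebo libraries. Its highest value was in the library with the most muscle RNA. Esrra, the more widely expressed relative, was at 25.1, 22.9 and 25.3 CPM in ERalphaKO E2 libraries, 20.2, 27.8, 38.7 and 27.2 CPM in ERalphaKO placebo libraries, 23.5, 21.3 and 22.1 CPM in WT E2 libraries, and 25.6 and 29.1 CPM in WT placebo libraries. These groups overlapped in both E2 comparisons for Esrrg, while the 3 WT E2 values of Esrra were all below the 2 WT placebo values.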
